A study of Homo sapiens with 9 samples.

Results

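The genes described here are GDF6, which encodes a bone morphogenetic protein (BMP) family growth factor, together with related ligand genes and the targets by which BMP signalling is usually read. They were taken by symbol from a list of 10: the ligand genes GDF6, BMP2, BMP4, BMP6 and INHBA, the target genes ID1, ID2 and ID3, and the inhibitory SMAD genes SMAD6 and SMAD7. The count tables for AMI-1 and AMI-5 both held 9 of them, out of 18293 genes present in both tables, and BMP2 was not analysed here. The group was proposed because GDF6 was lower with AMI-1 in these same libraries, so the values of these 9 genes in AMI-1 against control are given as a description, with no p-value.

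BMPs are secreted dimers of the TGF-beta superfamily. They bind paired type I and type II receptor kinases, which phosphorylate SMAD1, SMAD5 and SMAD9, and these enter the nucleus with SMAD4 to switch on ID1, ID2, ID3, SMAD6 and SMAD7. Activins, the ligands built from INHBA subunits, act through SMAD2 and SMAD3 instead. In endothelium the BMP receptor ACVRL1 and its co-receptor endoglin (ENG) keep vessels ordered, and loss of either causes hereditary haemorrhagic telangiectasia.

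The RNA, selected on its poly-A tail, came from HMEC-1, a human dermal microvascular endothelial line immortalised with SV40 large T antigen and grown in MCDB131 medium with 5.5 mM glucose. The groups, of 3 libraries each, were DMSO solvent alone (control), AMI-1 at 100 µM in DMSO and AMI-5 at 100 µM in DMSO, all for 16 h. Both compounds served as methyltransferase inhibitors; AMI-1 is a urea that joins a pair of hydroxynaphthalene sulfonic acids, whereas AMI-5 belongs to the brominated xanthene dyes. The labels do not say that the 3 libraries of a group were separate cultures, so the spread between them may be technical.

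Libraries held 14451343 to 24691456 counts on the 18293 genes. The members had from 46 reads (ID2) to 1883 reads (ID3) in a library. Of 11 endothelial marker genes 9 were in the tables, CDH5, TIE1, TEK, ROBO4 and ERG among them. The 9 summed to 507.5 to 619.4 CPM (counts scaled to a library total of 1000000) in controls. KDR, VWF, EMCN and ESAM were scarcer, with control means of 17.3, 6.81, 4.11 and 1.12 CPM. PECAM1 and CLDN5 were not among the rows. Of 6 fibroblast markers 5 (without DCN) summed to 2938 to 4215 CPM in controls, mostly COL1A1, and of 8 smooth muscle and pericyte markers 7 (without DES) to 548.2 to 860.1 CPM. Of 6 epithelial markers 3 were present (236.8 to 395.7 CPM; EPCAM, CDH1 and KRT5 were not), and of 6 leukocyte markers CD14 alone, at 1.57 to 2.44 CPM. In bulk RNA, fewer cells of a kind and less RNA per cell cannot be told apart.

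GDF6 and BMP4 shared a pattern across libraries once the mean of each replicate number was removed, as did ID1 and ID3. The promoter windows of BMP4, ID1 and ID3 are therefore shown. Each runs from 250 bases before to 50 after a RefSeq transcription start on GRCh38.p14, 5′ to 3′ on the gene's strand, with capitals marking GGCGCC (the GC-rich core of BMP-responsive elements, its own reverse complement) and GTCTG or its reverse complement CAGAC (SMAD-binding letters). BMP4 lies at chr14:53955001-53955300 on the minus strand, ID1 at chr20:31605039-31605338 on the plus strand and ID3 at chr1:23559452-23559751 on the minus strand. The BMP4 window is the most upstream of 3 for that gene.

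BMP4: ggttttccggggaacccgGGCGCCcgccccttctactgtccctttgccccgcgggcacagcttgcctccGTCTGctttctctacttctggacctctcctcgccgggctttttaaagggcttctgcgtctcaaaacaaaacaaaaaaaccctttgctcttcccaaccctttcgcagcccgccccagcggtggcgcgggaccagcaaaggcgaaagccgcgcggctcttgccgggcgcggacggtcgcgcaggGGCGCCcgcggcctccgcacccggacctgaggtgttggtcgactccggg
ID1: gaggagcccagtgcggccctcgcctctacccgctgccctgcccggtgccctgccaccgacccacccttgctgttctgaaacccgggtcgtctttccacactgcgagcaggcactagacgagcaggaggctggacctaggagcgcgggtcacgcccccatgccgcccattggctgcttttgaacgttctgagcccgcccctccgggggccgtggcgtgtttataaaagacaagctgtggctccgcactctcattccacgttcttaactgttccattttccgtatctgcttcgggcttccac
ID3: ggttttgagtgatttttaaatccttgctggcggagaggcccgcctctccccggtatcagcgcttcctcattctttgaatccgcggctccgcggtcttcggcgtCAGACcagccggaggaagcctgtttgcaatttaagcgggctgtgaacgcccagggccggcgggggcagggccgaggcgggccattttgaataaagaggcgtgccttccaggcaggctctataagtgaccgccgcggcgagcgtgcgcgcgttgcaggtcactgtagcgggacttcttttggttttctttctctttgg

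In this BMP4 window GGCGCC occurred 2 times and GTCTG 1 time, the latter starting 181 bases before the start site. The ID3 window held CAGAC starting 147 bases before the start site, and the ID1 window held neither. No window was found for GDF6, so its promoter was not searched. Windows were found for 8 members, among which GGCGCC occurred in 1 and GTCTG or CAGAC in 4, when any window of a gene was counted. Over all 35116 RefSeq windows, each counted singly and so not per gene, the shares were 19.2% and 45.3%. CACGTG, an E-box searched on both strands, occurred in a BMP4 window not shown and in no other member's, against 7.26% of all windows. These are matches of letters only, and sequence outside the windows was not searched, so elements further from a start site would be missed.

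Levels of different genes were compared per kilobase of the longest GENCODE transcript. In controls ID3 was highest at 64.2 ± 5.08 CPM per kb (SD, n = 3), followed by ID1 at 32.0 ± 4.37. GDF6 at 14.6 ± 0.97 and BMP4 at 12.9 ± 2.30 came next, with GDF6 above BMP4 in 2 of 3 control libraries and 4 of all 9, so their order was not fixed. BMP6 had 7.07 ± 0.68, INHBA 4.96 ± 1.40 and SMAD7 3.31 ± 0.37. ID2 at 2.10 ± 0.83 and SMAD6 at 1.62 ± 0.28 were lowest and did not separate, with ID2 the higher in 6 of 9 libraries. The steps from ID3 to ID1, from ID1 to GDF6, from BMP4 to BMP6 and from INHBA to SMAD7 held in 9 of 9 libraries.

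With AMI-1 the BMP ligand transcripts GDF6, BMP4 and BMP6 were lower than in the control of the same replicate number in 3 of 3 pairs, while INHBA and ID2 were higher. ID1 and ID3, the most abundant targets, differed in sign between the pairs. With AMI-5 the BMP ligands stayed near control. GDF6 had 53.8, 57.8 and 50.6 CPM in control replicates 1, 2 and 3. The AMI-1 libraries had 40.7, 41.1 and 35.03 CPM and the AMI-5 libraries 53.8, 52.8 and 53.2. All 3 AMI-1 libraries lay below all 6 others, and the AMI-5 libraries lay inside the control range. Within pairs of the same replicate number the AMI-1 level was 75.6%, 71.1% and 69.2% of control, a mean log2 ratio of -0.47 ± 0.07 (SD, n = 3). The separation of AMI-1 from control without overlap, which was 1 of 9 members, was found downward in 1.59% and upward in 2.33% of all genes. Since GDF6 was picked for it, nothing is read from that count.

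BMP4, a ligand that endothelial cells secrete and that induces ID genes in neighbouring cells, had 26.9, 19.7 and 27.8 CPM in the controls. The AMI-1 libraries had 21.2, 14.01 and 20.0 CPM and the AMI-5 libraries 29.8, 17.4 and 31.4. Replicate 2 was the low library in every group, so the groups overlapped, while each AMI-1 library lay below the control of its own number. The pair levels were 79.0%, 71.1% and 72.3% of control. The fitted log2 change with AMI-1 was -0.45 without and -0.46 with a term for the replicate number (a replicate block).

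BMP6, a ligand made by endothelium of the liver that controls iron handling, had 21.1, 20.3 and 17.5 CPM in the controls. The AMI-1 libraries had 14.8, 18.1 and 16.2 CPM and the AMI-5 libraries 19.4, 21.0 and 18.7. AMI-1 was lower in 3 of 3 pairs, at 70.1%, 89.2% and 92.3% of control, with most of the difference in pair 1. INHBA, the activin subunit gene, went the other way, with 23.8, 39.7 and 26.8 CPM in the controls, 31.8, 44.0 and 37.4 under AMI-1, then 27.4, 42.0 and 29.7 under AMI-5. Replicate 2 was the high library of INHBA in each group, and AMI-1 was above its control in 3 of 3 pairs, at 133.4%, 110.6% and 139.6%.

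**Figure D1:**
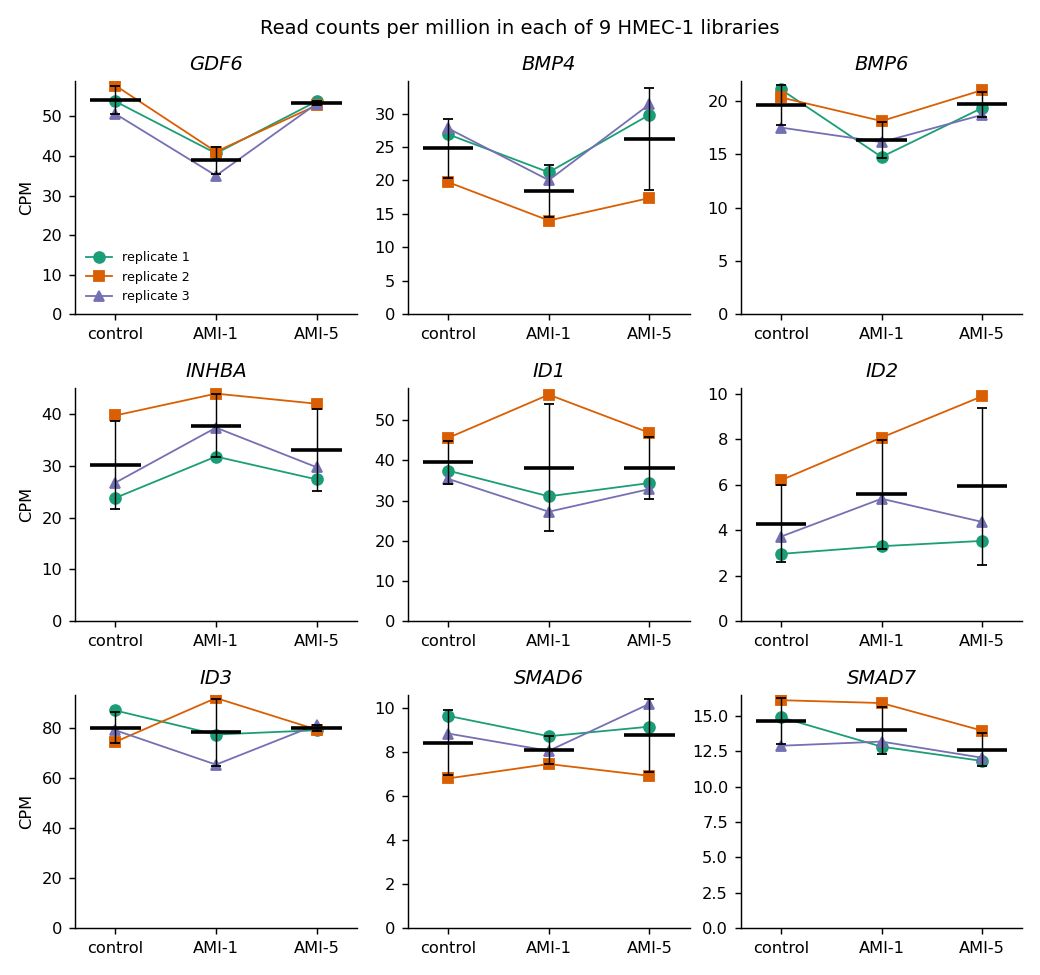
CPM (vertical axis, from 0) of the 9 members in control, AMI-1 and AMI-5 libraries; lines join libraries of the same replicate number, and black bars give the mean and SD of 3 libraries. The 3 AMI-1 values of GDF6, 35.03 to 41.1 CPM, lie below its other 6, and replicate 2 stands apart in BMP4, INHBA, ID1 and ID2.

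The ID genes encode helix-loop-helix proteins without a DNA-binding region, which hold back E proteins such as TCF3, TCF4 and TCF12. ID1 had 37.4, 45.6 and 35.4 CPM in the controls and 34.3, 46.8 and 32.8 with AMI-5. With AMI-1 it had 31.0, 56.3 and 27.2, so that the AMI-1 group held both the highest and the lowest 2 of the 9 libraries. The pair levels with AMI-1 were 83.0%, 123.6% and 77.0% of control. ID3 had 87.1, 74.5 and 79.2 CPM in the controls, 77.5, 92.1 and 65.4 under AMI-1, then 79.2, 79.4 and 81.4 under AMI-5. It was also below control in AMI-1 pairs 1 and 3, at 88.9% and 82.6%, and above in pair 2, at 123.5%.

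ID2 was the scarcest ID transcript, at 46 to 143 reads a library. It had 2.96, 6.20 and 3.72 CPM in the controls, 3.30, 8.08 and 5.39 under AMI-1, then 3.53, 9.90 and 4.36 under AMI-5. Replicate 2 was highest in each group and the groups overlapped, but both compounds were above control in 3 of 3 pairs. The AMI-1 libraries were at 111.0%, 129.8% and 143.7% of their controls and the AMI-5 libraries at 118.7%, 158.6% and 116.9%.

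SMAD6 and SMAD7 encode inhibitory SMADs, the former acting mainly on BMP receptors and the latter on both branches of the family. SMAD6 had 9.65, 6.80 and 8.85 CPM in the controls, 8.72, 7.46 and 8.06 under AMI-1, then 9.16, 6.92 and 10.2 under AMI-5. Like ID1 and ID3 it was below control in AMI-1 pairs 1 and 3 and above in pair 2, at 90.5%, 91.2% and 109.5%. SMAD7 had 14.9, 16.1 and 12.9 CPM in the controls, 12.8, 15.9 and 13.2 under AMI-1, then 11.8, 13.98 and 12.1 under AMI-5. With AMI-5 it was lower in 3 of 3 pairs, at 79.4%, 86.7% and 93.5%, and the groups overlapped.

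**Figure D2:**
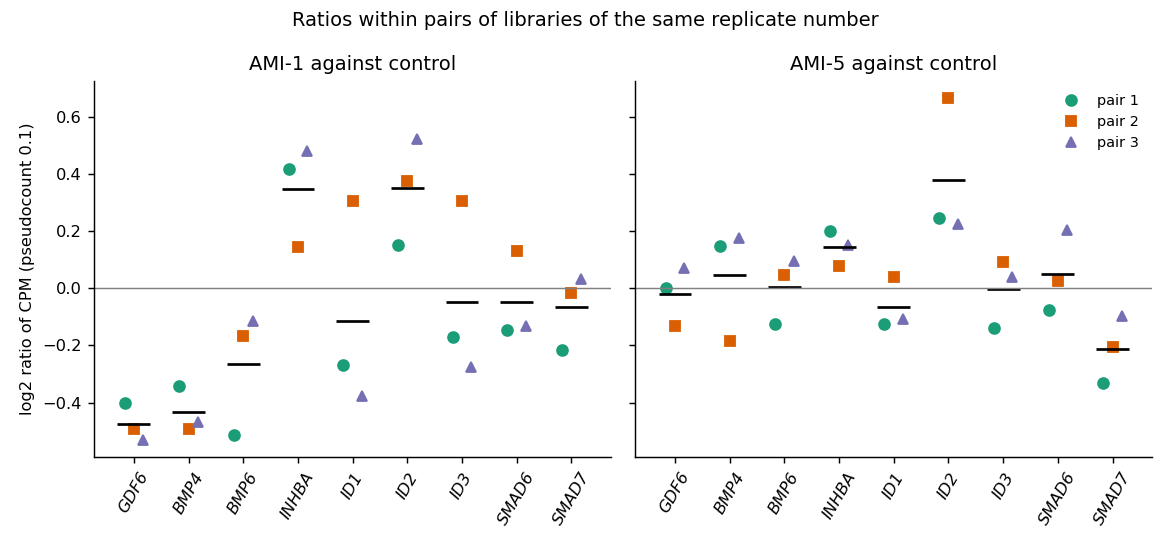
Log2 ratio of CPM (vertical axis, pseudocount 0.1 CPM) of AMI-1 (left) and AMI-5 (right) over the control of the same replicate number for each member; symbols are the 3 pairs and bars their mean. With AMI-1 the 3 ratios of GDF6 lie between -0.53 and -0.40 and those of BMP4 between -0.49 and -0.34, while ID1 and ID3 have 2 negative and 1 positive ratio each.

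In AMI-1 against control, 3 members (GDF6, BMP4 and BMP6) were lower in 3 of 3 pairs, against 12.9% of all genes, and 2 (INHBA and ID2) were higher, against 17.4%. In AMI-5 against control, 1 member (SMAD7) was lower in 3 of 3 pairs, against 19.9% of all genes, and 2 (INHBA and ID2) were higher, against 34.7%. These comparisons share their control libraries, so their values stand side by side and their likeness is no separate result.

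ID1, ID3 and SMAD6 are GC-rich transcripts, with 58.6%, 57.2% and 58.9% GC in the longest transcript, and the libraries differed in GC. The mean GC content of counted transcripts, weighted by counts, was lower with AMI-1 than in control in pair 1 (50.6% and 50.8%) and pair 3 (49.3% and 49.98%), and higher in pair 2 (48.3% and 48.0%). The part of GC content in the pair values was not tested. After each library's trend on GC was subtracted, the log2 ratios of ID1 were -0.27, 0.23 and -0.26, against -0.30, 0.30 and -0.40 on the same scale before. ID3 had -0.17, 0.24 and -0.18, against -0.20, 0.30 and -0.30, and SMAD6 had -0.14, 0.05 and -0.01, against -0.17, 0.13 and -0.16. GDF6 had -0.41, -0.53 and -0.48 after the subtraction, and BMP4 -0.35, -0.53 and -0.41.

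**Figure D3:**
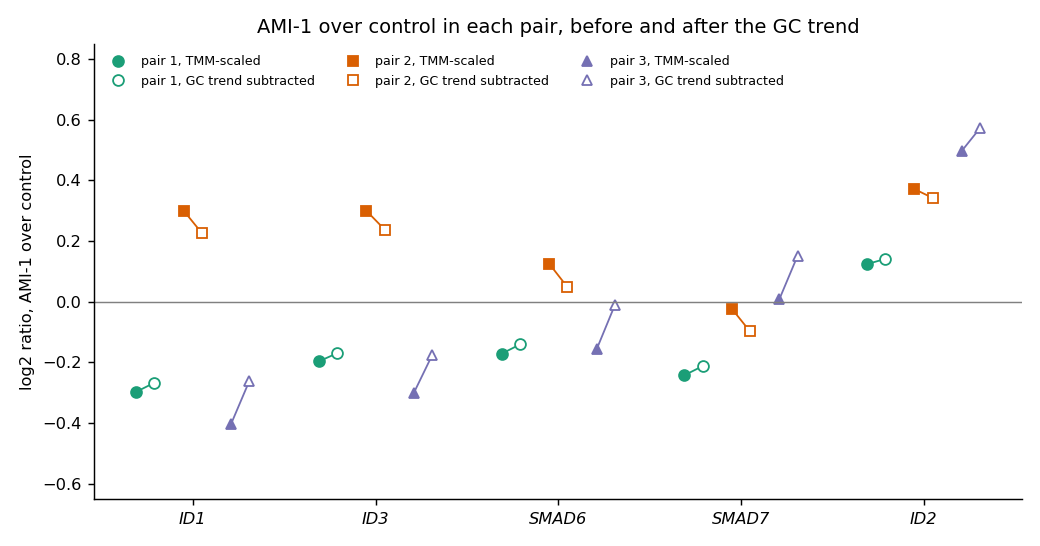
Log2 ratio of AMI-1 over control (vertical axis) for the 5 target genes in each pair of replicate number; filled symbols are TMM-scaled values and open symbols the same after subtracting each library's trend on transcript GC content. The pair 2 ratios of ID1 and ID3 stay above 0, at 0.23 and 0.24, and those of pairs 1 and 3 below.

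The fit without a block called 0 of 9 members in AMI-1 against control and 0 of 18284 genes (0% of all tested), while 188 genes had an unadjusted p under 0.05. The Wald test of DESeq2 called 0 members and 3 genes (0.0165%). With the replicate block 2 members lay past the threshold of 0.05 (GDF6 and BMP4, both lower) beside 0.421% of all genes in either direction, 0.18% lower and 0.241% higher, from which nothing is read because the contrast chose the group. The median of the 9 was -0.08 on the log2 scale, against -0.002 over all genes. The log2 change of GDF6 was -0.49 without and -0.50 with the block, and it ran from -0.53 to -0.43 over the 9 blocked fits that left out 1 library each. For BMP4 these fits gave -0.49 to -0.39. It lay past the threshold in only 4 of the 9, and nothing is read from that count.

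The blocked log2 changes of the other members with AMI-1 were 0.38 ± 0.14 (SE) for ID2, 0.33 ± 0.08 for INHBA, -0.27 ± 0.09 for BMP6 and -0.12 ± 0.10 for ID1. SMAD6, SMAD7 and ID3 lay between -0.08 and -0.06. Without AMI-1 replicate 2 the value of ID1 was -0.33 and that of INHBA 0.41. With correction for GC content INHBA was at 0.26, and 3 of 9 members lay past the threshold beside 3.12% of all genes, from which nothing is read either.

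With AMI-5 no member passed the threshold against control, and GDF6, BMP4 and BMP6 lay close to their control levels, with SMAD7 the lowest and ID2 the highest relative to control. This contrast did not choose the group, although it uses the same controls. Without the block edgeR called 0 of 9 members and 0 of 18284 genes (0%), while 494 genes, no member among them, had an unadjusted p under 0.05. The Wald test of DESeq2 called 0 members and 20 genes (0.127%). With the block edgeR called 0 of 9 members beside 10.9% of all genes, 7.45% lower and 3.42% higher. No member lay apart from control without overlap, against 1.79% of genes below and 6.05% above. GDF6 differed from control by -0.08 ± 0.07 (SE) on the log2 scale in the blocked edgeR fit (95% interval -0.22 to 0.07, adjusted p = 0.4999). BMP4 differed by 0.01 (-0.17 to 0.19) and BMP6 by -0.05 (-0.24 to 0.14). Without the block the intervals were wider, at -0.33 to 0.16 for GDF6, -0.58 to 0.62 for BMP4 and -0.35 to 0.24 for BMP6.

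No target gene passed the threshold with AMI-5 in the blocked fit. There ID1 differed by -0.12 (95% interval -0.34 to 0.09), ID3 by -0.06 (-0.25 to 0.13) and SMAD6 by 0.01 (-0.23 to 0.24). SMAD7 differed by -0.27 ± 0.09 (SE; adjusted p = 0.0705 in edgeR with the block), a value that correction for GC content brought to -0.14 (adjusted p = 0.303) and that passed without AMI-1 replicate 3 (-0.26, adjusted p = 0.0298). ID2 differed by 0.37 ± 0.14 (adjusted p = 0.110 in edgeR with the block) and passed with GC correction (0.43, adjusted p = 0.0448), without AMI-1 replicate 3 (0.38, adjusted p = 0.0400) and without AMI-5 replicate 3 (0.52, adjusted p = 0.0311). With GC correction 1 of 9 members was called (ID2), beside 13.2% of all genes. It turned the sign of the AMI-5 values of BMP6 (0.03), INHBA (-0.03), ID1 (0.01) and ID3 (0.05), none of which passed.

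AMI-5 against AMI-1, at the same concentration and time, sets the compounds side by side. It uses the AMI-1 libraries that chose the group, so the p-values of members in it are descriptions and no independent test. BMP4 was higher with AMI-5 in 3 of 3 pairs, at 140.3%, 123.8% and 156.2% of the AMI-1 level. Its log2 difference was 0.47 ± 0.26 (SE, adjusted p = 1.0) without the block and 0.47 ± 0.09 (95% interval 0.28 to 0.65, adjusted p = 0.00430) with it, both in edgeR. That call was lost without AMI-5 replicate 1 (adjusted p = 0.0650). GDF6, whose AMI-1 values chose the group, was higher with AMI-5 without overlap, at 132.3%, 128.5% and 151.7% of the AMI-1 level, with a fitted difference of 0.41 without and 0.42 with the block.

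BMP6 was higher with AMI-5 than with AMI-1 in 3 of 3 pairs and without overlap, by 0.22 ± 0.09 (SE; adjusted p = 0.175 in edgeR with the block). It passed with GC correction (0.27, adjusted p = 0.0268) and without AMI-1 replicate 3 (0.27, adjusted p = 0.0499). INHBA was lower in 3 of 3 pairs, by -0.25 ± 0.07 (adjusted p = 0.0682 in edgeR with the block), and passed with GC correction (-0.29, adjusted p = 0.000834) and without AMI-1 replicate 2 (-0.33, adjusted p = 0.0220). The ID genes showed no difference between the compounds past the threshold. The blocked 95% intervals were -0.22 to 0.21 for ID1, -0.30 to 0.28 for ID2 and -0.19 to 0.19 for ID3.

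This contrast uses the AMI-1 libraries whose GDF6 values chose the group, so its counts of members are descriptions. In the blocked fit 2 of 9 members lay past the threshold (GDF6 and BMP4, both higher with AMI-5), beside 5.01% of all genes, 3.4% lower and 1.61% higher. With GC correction 4 did (BMP6 and INHBA too), beside 11.1%. Higher in 3 of 3 pairs were 3 members (GDF6, BMP4 and BMP6), against 22.3% of all genes, and lower 2 (INHBA and SMAD7), against 13.5%. Members lying apart without overlap were GDF6 and BMP6, both higher, against 5.61% of genes above and 2.22% below. Without the block edgeR called 0 members and 0 genes (0% of 18284), while 483 genes had an unadjusted p under 0.05. The Wald test of DESeq2 called 0 members and 36 genes (0.197%).

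**Figure D4:**
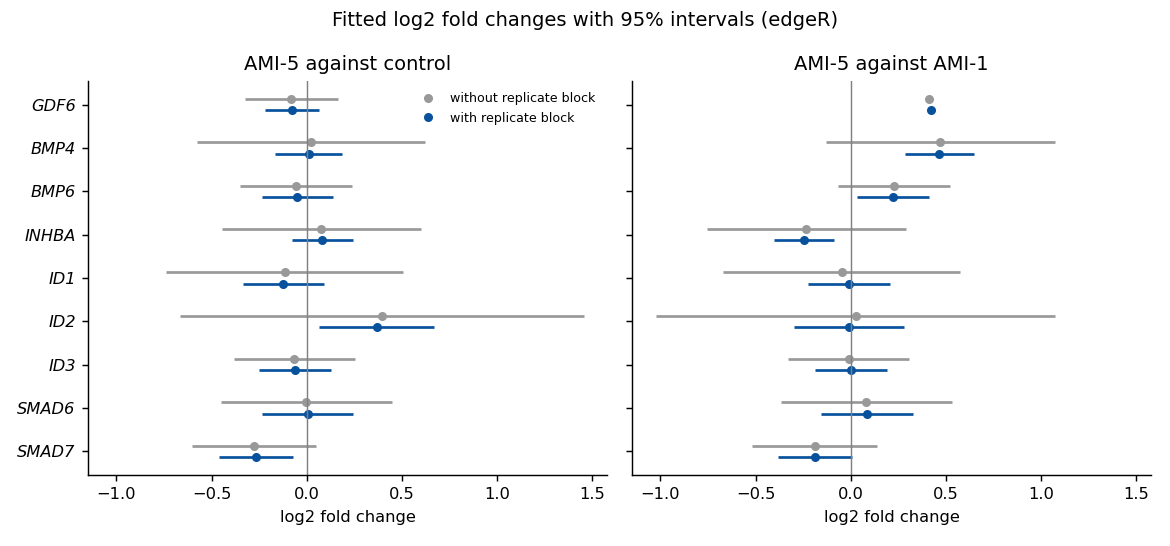
Fitted log2 fold change (horizontal axis) of each member for AMI-5 against control (left) and AMI-5 against AMI-1 (right), with 95% intervals from edgeR without (grey) and with (blue) the replicate block; GDF6 against AMI-1 is drawn as a point because AMI-1 values chose the group. The blocked interval of BMP4 against AMI-1 runs from 0.28 to 0.65, and those of ID1, ID2 and ID3 span 0.

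Across the 9 libraries, after the mean of each replicate number was removed from log2 CPM, BMP4 followed GDF6 more closely than any other member, with a Pearson correlation of 0.980. Without that removal it was 0.455, below the 0.794 of BMP6, so the order depended on the removal. The non-member genes most like GDF6 were CLTA, which encodes a clathrin light chain (0.973), CD3EAP, of an RNA polymerase I subunit (0.973), SFRP1, of a secreted WNT antagonist (0.973), CENPV (0.973) and DTNB, of dystrobrevin beta (0.972), at 0.341 to 0.504 before the removal. ID3 followed ID1 at 0.939, and at 0.638 before the removal, when SMAD7 (0.742) and ID2 (0.669) were closer to ID1. The genes most like ID1 were TREH, of trehalase (0.970), FAM171A1 (0.961), TMEM39B (0.960) and the pseudogenes POLR2J4 (0.949) and WBP11P1 (0.948), whose reads may not be separable from their parent genes. Before the removal 4 of these 5 ran opposite to ID1, at -0.375 for TREH, -0.256 for FAM171A1, -0.614 for TMEM39B and -0.550 for POLR2J4, and WBP11P1 was at 0.817. Values of 1 library share its depth and GC content, and correlations over 9 points after this removal describe these libraries only.

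Of 117 other gene symbols of the pathway, grouped by role, 80 were tested (HFE2 and HJV name the same gene, as do CTGF and CCN2). With AMI-1 the blocked edgeR fit called 1 of them (1.25%), beside 0.421% of all genes. With AMI-5 it called 11 lower and 2 higher (16.2%), beside 10.9% of all genes, and between the compounds 9 lower and 2 higher with AMI-5 (13.8%), beside 5.01%. The fit without a block called none of the 18284 genes in any of these contrasts. All adjusted p-values that follow are from the blocked edgeR fit, and each gene named from it had the same sign in 3 of 3 pairs unless said otherwise. With GC correction the blocked fit called 8 lower and 1 higher with AMI-1 (11.2%), 16 lower and 0 higher with AMI-5 (20%), and 14 lower and 8 higher between the compounds (27.5%), beside 3.12%, 13.2% and 11.1% of all genes. GC correction kept the calls of FURIN, BMP1, ENG and LTBP2 with AMI-5 but shrank them to -0.17, -0.14, -0.16 and -0.13, and that of NBL1 between the compounds to -0.12.

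Of 28 other ligand genes 10 were tested and 0 were called in any contrast. With GC correction TGFB2 was called lower with AMI-1 and GDF9 lower with AMI-5, and AMH, GDF15 and INHBB higher with AMI-5 than with AMI-1. The highest in control were TGFB1 (174.8 ± 57.4 CPM; SD, n = 3), TGFB2 (137.6 ± 41.4) and GDF11 (46.0 ± 0.42). Among 4 tested proteases that cut ligand precursors or free them, 2 were lower with AMI-5: FURIN, the main proprotein convertase of the family, by -0.34 ± 0.08 (SE, adjusted p = 0.0140), and BMP1, a procollagen and chordin protease and no BMP, by -0.30 ± 0.07 (adjusted p = 0.0108). Both were also lower than with AMI-1, BMP1 by -0.31 ± 0.07 (adjusted p = 0.0120) and FURIN, in 2 of 3 pairs, by -0.30 ± 0.08 (adjusted p = 0.0374); GC correction left these at -0.19 and -0.17. PCSK7, another convertase gene, had the highest level, at 217.8 ± 43.3 CPM in control.

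Among the genes of extracellular binding proteins and antagonists, levels in control ran from 0.67 CPM for CHRDL1 to 1562 for FSTL1. FSTL1 had an SD of 209, the transmembrane BMP-binding protein gene CRIM1 had 865 ± 66.0 CPM and the BMP antagonist GREM1 774 ± 173. Of 14 tested, 0 were called with AMI-1 (with GC correction, CRIM1, NOG and SMOC1 were called lower and GREM1 higher), and with AMI-5 NOG, the gene of the BMP antagonist noggin, was lower by -0.49 ± 0.12 (SE, adjusted p = 0.0177) and TWSG1, which modulates chordin, was higher by 0.19 ± 0.06 (adjusted p = 0.0443). GC correction left TWSG1 at 0.03 (adjusted p = 0.663). NOG had 10.2 ± 3.61 CPM in control and 7.55 ± 3.12 with AMI-5. Between the compounds GREM1 was lower with AMI-5, by -0.32 ± 0.06 (adjusted p = 0.00541), and NBL1 by -0.28 ± 0.07 (adjusted p = 0.0300), while the activin antagonist FST was higher by 0.45 ± 0.12 (adjusted p = 0.0447). FST had 5.72 ± 0.62 CPM in control, 4.47 ± 0.65 with AMI-1 and 6.22 ± 0.72 with AMI-5.

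Of 14 tested receptor and co-receptor genes 2 were lower with AMI-5: ENG by -0.36 ± 0.07 (SE, adjusted p = 0.00419) and TGFBR2, the TGF-beta type II receptor, by -0.22 ± 0.05 (adjusted p = 0.0131). ENG had 470 ± 109 CPM in control and 381 ± 80.9 with AMI-5. Of 9 endothelial markers, 4 were lower alongside, among them CDH5 by -0.28 (adjusted p = 0.00873), and 1 was higher. That was the scarce ESAM, by 1.25, from a mean of 1.12 CPM in control to 2.86 with AMI-5. The 9 markers summed to 457.5 to 555.5 CPM with AMI-5. The lower calls were each lost in 4 or more of the 9 fits that left out 1 library, that of CDH5 without replicate 1 or 3 of control or 1 or 2 of AMI-5 (adjusted p up to 0.113), and that of ESAM in none. COL1A1 was lower too, by -0.32 (adjusted p = 0.0126, up to 0.164 when the same libraries were left out). Of 5 fibroblast markers tested with AMI-5, 2 lay below 0 and 3 above, with a median of 0.02. Their sum, mostly COL1A1, was 2487 to 3161 CPM. The part of the endothelial and fibroblast markers in the receptor values was not tested. The BMP receptor gene ACVRL1 was lower with AMI-5 than with AMI-1 by -0.31 ± 0.08 (adjusted p = 0.0306), as were TGFBR2 by -0.21 ± 0.05 (adjusted p = 0.0215) and, in 2 of 3 pairs, ENG by -0.26 ± 0.07 (adjusted p = 0.0352), which GC correction left at -0.11. With AMI-1 against control 0 of the 14 were called, and with GC correction 1 was called lower. RGMB, a BMP co-receptor gene, had 212.5 ± 2.31 CPM in control. With AMI-1 RGMB was lower in 3 of 3 pairs and without overlap, at 182.8 to 194.6 CPM against 209.8 to 214.1 in control. Its AMI-5 libraries overlapped the controls. The blocked fit did not call RGMB with AMI-1, and 1.59% of all genes lay below control without overlap. Such separations were not counted over the pathway genes.

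All 6 receptor-regulated and common SMAD genes were tested and 0 were called in any contrast, although GC correction called SMAD3 lower with AMI-5 than with AMI-1 (-0.14, adjusted p = 0.0138). Levels in control were highest for SMAD3 (176.6 ± 1.94 CPM), SMAD2 (114.7 ± 25.3) and SMAD4 (112.8 ± 19.5). Of 14 intracellular regulators 0 were called with AMI-1 (with GC correction SMURF2, lower). With AMI-5 PMEPA1, a TGF-beta-induced inhibitor that retains SMADs, was lower by -0.40 ± 0.09 (SE, adjusted p = 0.0130), NEDD4L, a ubiquitin ligase of SMADs, by -0.24 ± 0.06 (adjusted p = 0.0199), and the co-repressor gene SKIL was higher by 0.31 ± 0.08 (adjusted p = 0.0189). GC correction left SKIL at 0.12 (adjusted p = 0.108). The same 2 of these differed between the compounds, NEDD4L by -0.25 ± 0.06 (adjusted p = 0.0243) and SKIL by 0.27 ± 0.08 (adjusted p = 0.0485). CTDSP2, SKI and SMURF2 were the highest of the list, at 175.7 ± 13.1, 166.9 ± 46.7 and 136.7 ± 36.9 CPM in control.

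Of 6 other BMP target genes tested 0 were called in any contrast. ATOH8, a BMP-induced transcription factor gene of endothelium, had 24.9 ± 5.06 CPM in control, 23.3 ± 4.10 with AMI-1 and 24.0 ± 3.88 with AMI-5. HES1 had 11.0 ± 1.68 CPM in control, and TMEM100, an endothelial gene downstream of ACVRL1, had 6.16 ± 0.92. Among 5 genes of ID partners, TCF3 was lower with AMI-5 by -0.22 ± 0.07 (SE, adjusted p = 0.0469), which GC correction left at -0.06 (adjusted p = 0.316). TCF3, TCF12 and TCF4 had 156.2 ± 50.9, 114.4 ± 30.0 and 65.8 ± 13.4 CPM in control.

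In AMI-5 against control, 7 genes were tested that respond to TGF-beta or activin, or hold it in the matrix. All 7 had fitted changes below 0 (6 with GC correction), as did 9316 of all 18284 genes. Of the 7, 3 were called, all lower, beside 7.45% of all genes called lower. Among these were THBS1, of thrombospondin 1 (-0.25 ± 0.05 SE, adjusted p = 0.00563), and LTBP2, of a matrix protein that binds fibrillin (-0.24 ± 0.06, adjusted p = 0.0229). The median of the 7 was -0.19 (-0.13 with GC correction), against -0.005 over all genes. LTBP2 was also the single call of the 80 genes with AMI-1 (-0.38 ± 0.06, adjusted p = 0.00791), a call lost when AMI-1 replicate 1 or control replicate 1 or 3 was left out (adjusted p up to 0.157). THBS1 was lower with AMI-5 than with AMI-1 too (-0.28 ± 0.05, adjusted p = 0.00330). THBS1 and TGFBI had 4477 ± 812 and 1404 ± 219 CPM in control.

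Every one of the 13 pathway genes called with AMI-5 lost its call without AMI-5 replicate 1 or control replicate 1, with adjusted p-values of up to 0.330 over the fits that left out 1 library. All of them but THBS1 also did so without AMI-5 replicate 2. Of the 11 called between the compounds, all did without AMI-5 replicate 1 and AMI-1 replicate 1, with adjusted p-values of up to 0.359.

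**Figure D5:**
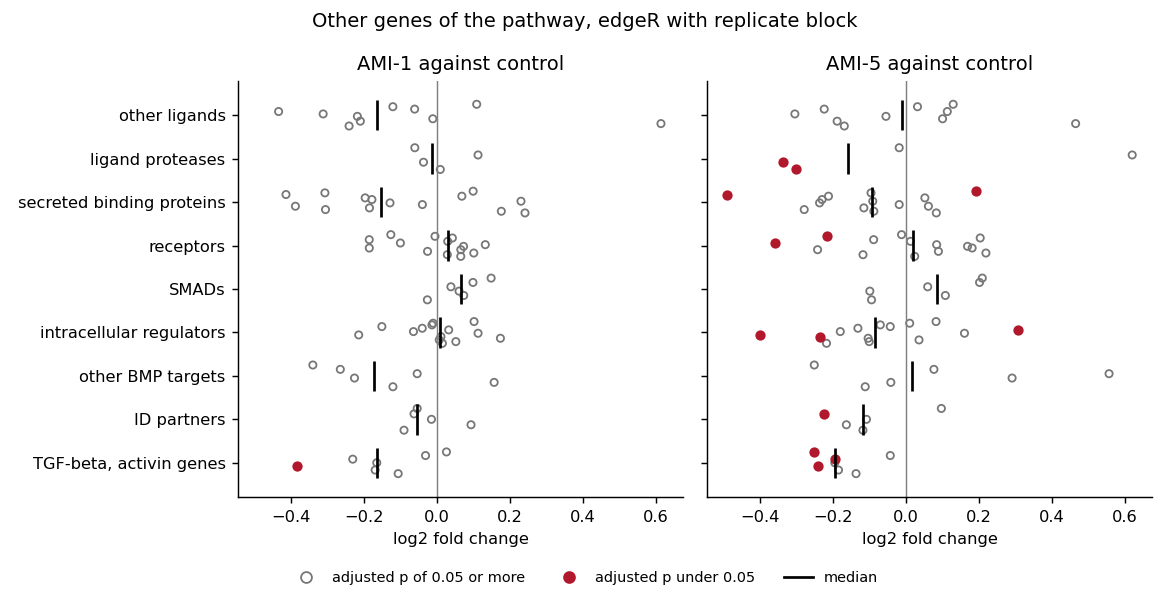
Log2 fold change (horizontal axis) from edgeR with the replicate block for 80 other genes of the pathway by role, with AMI-1 (left) and AMI-5 (right) against control; red points have an adjusted p under 0.05 and black bars are medians. With AMI-1 only LTBP2, at -0.38, is red, and with AMI-5 11 genes below 0 and 2 above it are.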

How the data were processed

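Per compound the authors deposited 1 table of raw counts by gene, and the control columns of both are identical. The submitters' processing notes name BWA, bedtools and hg19. The annotation, the strand setting and tool versions are not stated there. No gene in a table had a mean count under 10, and the 18293 genes in both tables were used.

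CPM were counts over each library's total on these genes. edgeR 4.0.16 (quasi-likelihood F test, TMM, filterByExpr, R 4.3.3) was run on all 9 libraries in 1 fit, with 18284 genes kept, and Benjamini-Hochberg adjustment over all genes with a threshold of 0.05. Alternatives included DESeq2 1.42.0.

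Libraries of the same number correlated across genes in their deviations from group means (0.250 to 0.931, against -0.892 to 0.503 for others), and the column names give those of a number a shared prefix whose meaning is not stated. The number was therefore taken as a pairing, and a blocked fit is given beside the fit without it. The GC correction used a lowess trend per library (span 0.3) on the longest GENCODE transcript, known for 95.7% of genes. Transcript lengths and promoter windows are on GRCh38 and the counts on hg19, so no coordinates are transferred.

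The members and lists were chosen with earlier results of these data known. Named pathway genes were up to 3 per list and contrast with the lowest blocked adjusted p under 0.05 and the same sign in 3 of 3 pairs, plus the 3 highest in control; for likeness, the 5 genes with a mean of at least 5 CPM best correlated with GDF6 and with ID1. The values of 1 gene that met this rule are not reported here.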

Additional observations from a re-analysis of the deposited data

How the results depend on the processing

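Calls depended on the replicate block. Counts follow in the order AMI-1, AMI-5 (each against control) and compound against compound. Without the block edgeR called 0, 0 and 0 genes, and likewise with DESeq2 size factors, with no filter on low counts and with only the groups compared. The Wald test of DESeq2 called 3, 20 and 36 genes and 0 members. With the replicate block 77, 1988 and 916 genes and 2, 0 and 2 members were called. With the replicate block and DESeq2 size factors, an alternative added after seeing the data, the numbers were 71, 1953 and 905 genes, with 2, 0 and 2 members. With the replicate block and GC correction they were 570, 2418 and 2034 genes, with 3, 1 and 4 members. Leaving out 1 library gave 0 to 1, 0 and 0 to 2 genes without the block, and 14 to 308, 172 to 4232 and 195 to 3408 genes with it, among them 1 to 4, 0 to 2 and 1 to 3 members. The log2 change of GDF6 with AMI-1 without the block was -0.41 without AMI-1 replicate 3. Scaling by TMM moved the mean level with AMI-5 to 52.1 CPM for GDF6 and 78.2 CPM for ID3. The cause of these differences was not tested. ID2, at 46 to 143 reads a library, was the least precisely measured member.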
